A study of Homo sapiens with 8 samples.

Results

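Pharyngeal foregut endoderm cells (hPFE) were compared with the undifferentiated human embryonic stem cells (hESC) from which the differentiation starts. The libraries were chosen by their stage label: 2 labelled hPFE and 2 labelled hESC, which are 4 of the 8 RNA-seq libraries of the series. The cells of both stages are of H1, an established embryonic stem cell line. The labels give no genetic change for either stage, and name no agent, dose or day of treatment. The other 4 libraries are of the stages in between, definitive endoderm (hDE) and anterior foregut endoderm (hAFE). They serve here as levels on the way from start to end. They are also in the same fit, so the spread behind every p-value is estimated from them too. The titles mark the hESC libraries as re-analysed and the hPFE libraries carry no such mark, so the origin of a library and its stage cannot be told apart in any value below. The hDE titles carry the mark and the hAFE titles do not, so the same holds for every step from hDE to hAFE. All cells are of 1 line, and nothing in the labels says that replicates were grown as separate cultures. The p-values therefore measure no more than the spread among these 8 libraries, part or all of which may be technical.

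The pharyngeal endoderm is the front end of the gut tube. It folds into pouches that later form the thymus, the parathyroids, the thyroid and parts of the ear and palate, and transcription factors of the PAX, TBX, EYA and HOX families pattern it along the body axis together with retinoic acid, hedgehog, FGF and BMP signals. Embryonic stem cells are held undifferentiated by a network around POU5F1 (OCT4), NANOG and SOX2. The path to endoderm passes through a mesendoderm state driven by NODAL, in which EOMES, GSC and SOX17 are switched on, before FOXA factors and SOX2 mark the foregut.

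Levels are given as CPM, counts per 1000000 of the scaled library size, replicate 1 before replicate 2. A gene was called when edgeR's quasi-likelihood test of hPFE against hESC gave a p-value, adjusted by the Benjamini-Hochberg method over all genes tested, under 0.05. Log2 fold changes are hPFE minus hESC, and the standard error (SE) beside them is derived from the F statistic. Where a stage held 0 counts, the fold is a lower bound against 3 counts over its 2 libraries. Where it held 1 to 3 counts, the ratio carries an exact 95% binomial interval. Both cover counting error only, since without molecular identifiers a read does not stand for its own molecule.

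Total counts were 16785796 and 17802900 in hESC and 15569507 and 12893496 in hPFE, and the 8 libraries together ran from 12687161 to 17802900. The hPFE libraries were further apart than the hESC libraries. Over 9852 genes with a mean of at least 10 CPM, the SD of the log2 difference between replicates was 0.557 in hPFE and 0.307 in hESC, and 523 genes were over 2-fold apart in hPFE against 54 in hESC. The second hPFE library held 18.4% of its counts in mitochondrial ribosomal RNA and 3.79% in 7SL RNA, where the other 3 libraries held 11% to 14.3% and 10.8% to 12.1%. The part of these differences in the results was not tested.

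The labelled cell types were set against their defining markers. The 6 stem cell markers summed to 3269 and 3777 CPM in hESC and to 10.3 and 11.5 CPM in hPFE. All 11 markers of foregut and pharyngeal endoderm were present in both hPFE libraries, from TBX1 at 1.21 and 1.95 CPM to CDH1 at 222 and 285 CPM, and 9 of them were called higher than in hESC, where 21.6% of all tested genes were. SOX2 and CDH1, which both cell types express, were the 2 that did not pass. Neither PDX1 (pancreas) nor PTPRC (blood) had a count in hPFE, and KRT5 (stratified epithelium), CDX2 (trophoblast and hindgut) and GSC (organizer) had 1 count each over both libraries. KRT5, CDX2 and GSC do not stand for their marker groups. The surface ectoderm markers summed to 0.1 and 0.1 CPM in hESC and to 15.5 and 41.9 CPM in hPFE, most of it TP63. For trophoblast and amnion the sums were 4.7 and 2.3 CPM in hESC and 6.3 and 12.2 CPM in hPFE. For definitive endoderm they were 2.9 and 4.0 CPM in hESC and 35.8 and 17.6 CPM in hPFE.

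Of 17446 genes tested, 7842 (45.0%) differed between hPFE and hESC: 3773 were higher in hPFE (21.6%) and 4069 lower (23.3%). The libraries of the 2 stages did not overlap for 13119 genes (75.2%). The median log2 fold change over all tested genes was 0.02. By the fitted fold, 2641 of the higher and 2404 of the lower genes differed at least 2-fold. These counts leaned on having both hESC libraries, since 4444 genes were called without hESC replicate 1 and 3822 without hESC replicate 2, against 7632 and 6926 without either hPFE library. The balance of directions leaned on the scale. Higher genes made up 48.1% of the calls on counts, 78.7% on log2(TPM + 1), where the median gene stood 0.36 above 0, and 30.4% after each library was centred on its median, an alternative added after the data were seen. Small fold changes are therefore relative to the count scaling. A call that another scale ended is given with its gene, and the larger changes of a count with its list. Several genes that did not pass here but passed on another scale are marked where they are named. A test against a 2-fold minimum, which is stricter by construction, called 2393 genes. A fit of the 4 hPFE and hESC libraries alone, without hDE and hAFE, called 7094. Lists are described by how many tested members were called; a member had to be present in at least 1 stage to be tested, which favours genes that differ.

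**Figure D1:**
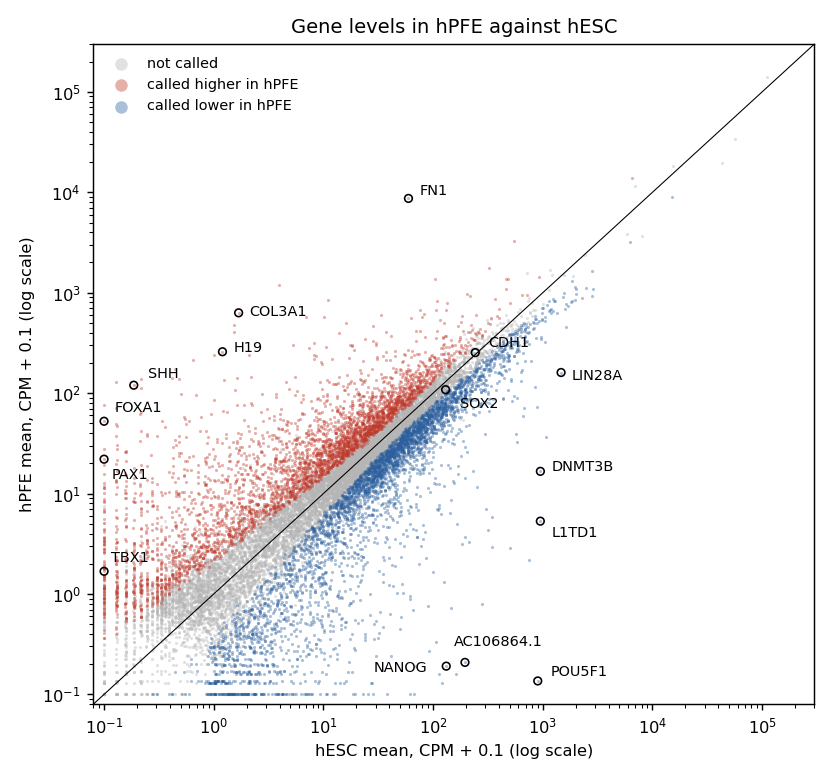
Mean level of every tested gene in hESC (x axis) and hPFE (y axis), both as CPM + 0.1 on log scales, with 1 point per gene; red genes were called higher in hPFE, blue genes lower, grey genes not called, and the line marks equal levels. POU5F1, NANOG and AC106864.1 lie at the bottom edge, while FOXA1, PAX1 and TBX1 had 0 counts in both hESC libraries and lie at the left edge.

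Genes of the stem cell network fell to near 0. Of 27 tested pluripotency genes, 25 fell and none rose (23.3% of all tested genes fell), with a median log2 fold change of -5.84, or -5.77 with genes at 0 held at their bound. This count was the same with any 1 library left out. POU5F1 (chromosome 6, 31164337 to 31180731, hg38), the POU-domain factor without which the state is lost, stood at 858 and 942 CPM in hESC and 0 and 0.0722 CPM in hPFE (ratio 27340, interval 4907 to 1080000, adjusted p = 2.45e-05). NANOG (chromosome 12, 7787794 to 7799141), its homeobox partner, stood at 139 and 124 CPM in hESC and 0.182 and 0 CPM in hPFE (ratio 1329, interval 454 to 6446, adjusted p = 1.35e-05). Both genes have close copies elsewhere in the genome, to which reads could be assigned. The remaining counts were 1 for POU5F1 and 3 for NANOG over both hPFE libraries, against 30950 and 4513 in hESC.

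The losses extended through the network. PRDM14, a repressor of differentiation genes, stood at 23.4 and 27.4 CPM in hESC and 0 CPM in both libraries of hPFE (at least 257-fold, adjusted p = 4.14e-05). VRTN fell from 153 and 172 CPM to 0.121 and 0 CPM (ratio 2471, interval 684 to 20410, adjusted p = 1.35e-05). L1TD1, an RNA-binding protein derived from a LINE-1 element, went from 808 and 1092 CPM to 5.22 and 5.2 CPM (log2 fold change -7.51, SE 0.30, adjusted p = 1.35e-05). The surface co-receptor for NODAL, TDGF1, still stood at 824 CPM on average in hDE and then fell to 1.15 and 4.40 CPM in hPFE (log2 fold change -7.54, SE 0.52, adjusted p = 9.20e-05). FOXD3 and the antisense RNA beside it, FOXD3-AS1, both had 0 counts in hPFE, from 6.91 and 8.71 CPM and 30.0 and 26.1 CPM in hESC. The sources used here do not give the strand setting of the counting, so reads of such overlapping pairs may not be told apart. In bulk samples, fewer cells of a type and less RNA per cell cannot be told apart, and this holds for every level given here.

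Some members kept a level near or above 100 CPM in hPFE, among them LIN28A, PODXL and SOX2. LIN28A (chromosome 1, 26410778 to 26429722), an RNA-binding protein that blocks maturation of let-7 miRNAs, stood at 1393 and 1545 CPM in hESC and 117 and 203 CPM in hPFE (log2 fold change -3.20, SE 0.28, adjusted p = 2.17e-04). Per transcript length it stood at a mean of 180.2 TPM in hESC and 32.9 TPM in hPFE. PODXL, a cell surface sialomucin also made by epithelia, stood at 898 and 788 CPM in hESC and 75.2 and 154 CPM in hPFE (log2 fold change -2.88, SE 0.54, adjusted p = 0.00453); it was singled out after its values were seen. SOX2 (chromosome 3, 181711924 to 181714436), the SOX factor shared by stem cells and foregut, stood at 129.6 and 130.3 CPM in hESC and 120.3 and 95.9 CPM in hPFE and did not differ by the test (log2 fold change -0.27, SE 0.40, adjusted p = 0.612). Its mean was 0.819 CPM in hDE, where it was nearly absent, and 108 CPM (SD 71.4, n = 2) in hAFE. OTX2, a head homeobox factor, stood at 46.4 and 53.3 CPM in hESC and 6.19 and 30.2 CPM in hPFE and did not pass (adjusted p = 0.323), with hPFE replicate 1 far below replicate 2.

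**Figure D2:**
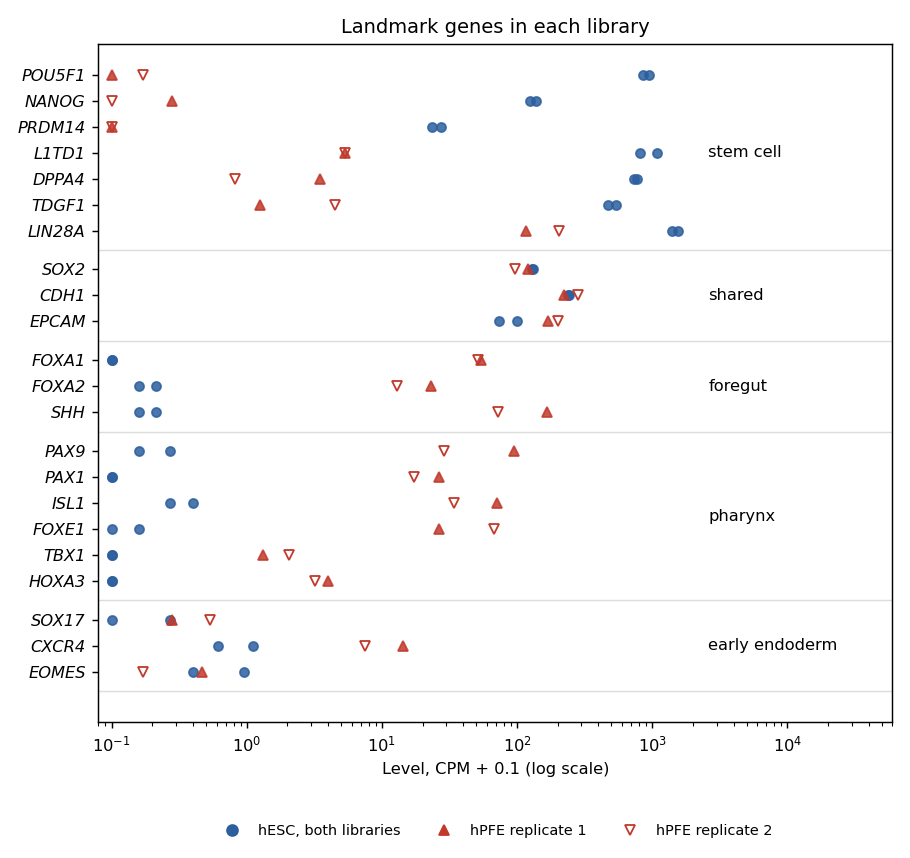
Level of 22 landmark genes (rows, grouped by role) in each library, as CPM + 0.1 on a log scale; circles are the 2 hESC libraries, filled triangles hPFE replicate 1 and open triangles hPFE replicate 2. The stem cell genes lie to the right in hESC, SOX2 and CDH1 overlap or nearly touch between stages, and the foregut and pharynx genes lie to the right in hPFE.

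The promoters of NANOG and SOX2 are shown because both hold the core of the octamer, the motif bound by POU-domain factors, while only 1 of the 2 genes went down with POU5F1. The sequences run 5′ to 3′ from 250 bases before the start of the gene to 50 after it (RefSeq, GRCh38.p14), with the octamer core in capitals. NANOG lies at chr12:7789152-7789451 on the plus strand, with the core 120 bases before the start and read on the opposite strand. SOX2 lies at chr3:181711675-181711974 on the plus strand, with the core 100 bases before the start.
NANOG: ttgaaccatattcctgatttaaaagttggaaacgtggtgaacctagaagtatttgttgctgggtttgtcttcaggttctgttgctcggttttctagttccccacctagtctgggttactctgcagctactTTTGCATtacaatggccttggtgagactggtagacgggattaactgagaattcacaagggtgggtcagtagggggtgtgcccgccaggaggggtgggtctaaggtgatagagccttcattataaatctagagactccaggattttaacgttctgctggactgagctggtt
SOX2: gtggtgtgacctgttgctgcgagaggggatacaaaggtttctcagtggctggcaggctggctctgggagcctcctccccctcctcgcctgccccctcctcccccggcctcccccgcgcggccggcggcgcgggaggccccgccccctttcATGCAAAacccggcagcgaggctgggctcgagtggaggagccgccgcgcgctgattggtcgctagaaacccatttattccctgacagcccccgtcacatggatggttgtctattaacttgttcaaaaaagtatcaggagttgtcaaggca
The letters ATGCAAA, searched on both strands, were held by 4.51% of 27305 promoters in the RefSeq table, by 2.93% of the 11758 promoters of tested genes, by 3.56% of those of genes at least 2-fold higher in hPFE and by 3.45% of those of genes at least 2-fold lower. A match is a description of the letters, not a bound site.

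The host transcript of a stem cell miRNA cluster was lost with the network. AC106864.1 (chromosome 4, 112646476 to 112650051, minus strand), an antisense RNA whose span holds the hairpins of miR-302a, b, c, d and miR-367, stood at 179.8 and 211 CPM in hESC and 0 and 0.216 CPM in hPFE (ratio 1978, interval 677 to 9595, adjusted p = 1.35e-05). Its mean was still 149 CPM in hDE and had dropped to 0.0696 CPM in hAFE. LARP7, the coding gene on the other strand at this place, stood at 50.5 and 41.4 CPM in hESC and 39.4 and 48.0 CPM in hPFE and did not differ by the test (adjusted p = 0.74). A host on chromosome X, AC002407.1 (chromosome X, 134168911 to 134174089), which holds miR-106a, miR-18b, miR-19b-2, miR-92a-2 and miR-363, fell from 8.95 and 9.78 CPM to 0.546 and 0.361 CPM (log2 fold change -4.33, SE 0.37, adjusted p = 2.17e-04). Hosts were read for the hairpins they hold after their levels were seen, and a host's level is not a measure of the mature miRNA, which was not measured here. The mature sequences below are shown to group the members by the seed (bases 2 to 8, in capitals), the part that pairs with targets. They are from RefSeq, GRCh38.p14, written 5′ to 3′. The first 4 share the seed AAGUGCU, and the next 3, which come from both lost hosts, share AUUGCAC. The mature miR-92a also comes from a hairpin in MIR17HG, a host that was not called, at 41.4 and 51.8 CPM in hESC and 39.8 and 48.2 CPM in hPFE (adjusted p = 0.712).
hsa-miR-302a-3p: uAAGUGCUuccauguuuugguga
hsa-miR-302b-3p: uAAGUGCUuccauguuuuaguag
hsa-miR-302c-3p: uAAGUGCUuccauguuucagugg
hsa-miR-302d-3p: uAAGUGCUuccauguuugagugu
hsa-miR-367-3p: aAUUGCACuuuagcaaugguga
hsa-miR-363-3p: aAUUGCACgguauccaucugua
hsa-miR-92a-3p: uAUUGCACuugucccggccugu
hsa-let-7a-5p: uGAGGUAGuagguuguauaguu
hsa-let-7c-5p: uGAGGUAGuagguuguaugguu
hsa-miR-100-5p: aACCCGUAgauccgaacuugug
hsa-miR-99a-5p: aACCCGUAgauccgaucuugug
hsa-miR-205-5p: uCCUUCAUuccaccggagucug

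The last 5 sequences belong to hosts that rose. MIR100HG (chromosome 11, 122028327 to 122556721), host of let-7a-2, miR-125b-1 and miR-100, stood at 1.14 and 0.791 CPM in hESC and 46.1 and 22.9 CPM in hPFE (log2 fold change 5.15, SE 0.59, adjusted p = 6.45e-04). MIR99AHG (chromosome 21, 15928296 to 16645065), host of let-7c and miR-99a, stood at 0 and 0.0565 CPM in hESC and 10.1 and 9.38 CPM in hPFE (ratio 336, interval 59.9 to 13320, adjusted p = 4.06e-04). The let-7 members of these hosts share the seed GAGGUAG, and miR-100 and miR-99a share ACCCGUA. MIR205HG (chromosome 1, 209428820 to 209432838), host of the epithelial miR-205, stood at 13.9 and 11.5 CPM in hESC and 85.5 and 161 CPM in hPFE (log2 fold change 3.28, SE 0.46, adjusted p = 0.0014). Over the whole annotation, 81 tested noncoding genes held 127 hairpins, of which 22 hosts were called higher, 6 lower and 53 were not called, where 21.6% of all tested genes were called higher and 23.3% lower.

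**Figure D3:**
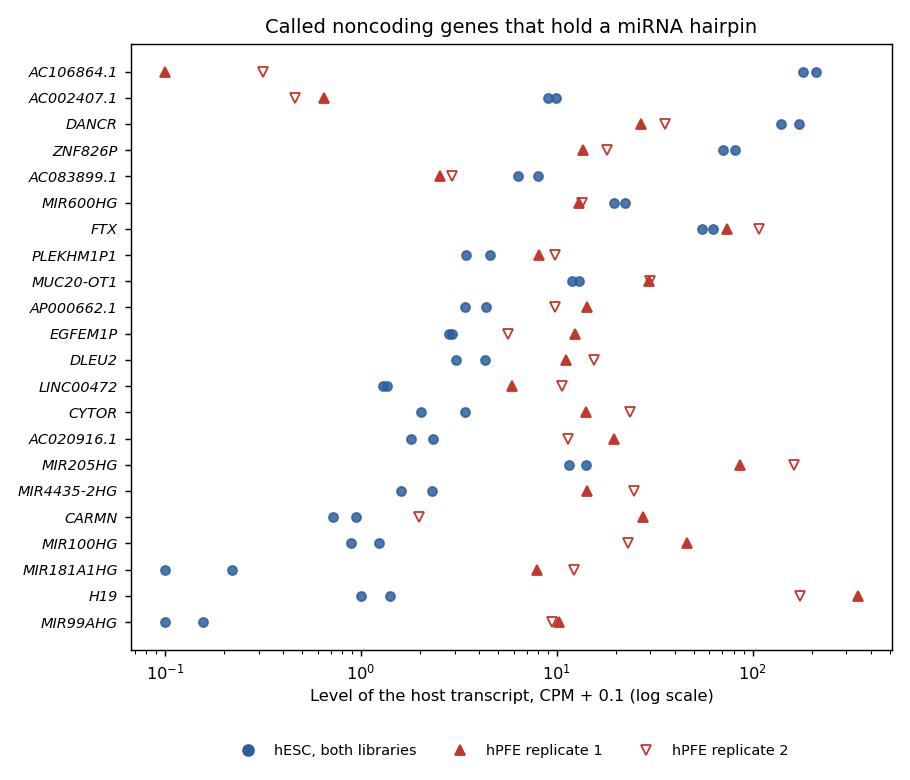
Level of the 22 noncoding miRNA hosts that were called and reached 5 CPM in either stage (rows), as CPM + 0.1 on a log scale; circles are the 2 hESC libraries and triangles the 2 hPFE libraries. AC106864.1 shows the widest gap of the 6 hosts that fell, and H19 and MIR99AHG stand at the bottom with the largest log2 rises of the 16 that rose.

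Most genes of anterior foregut identity rose. Of 15 tested anterior foregut genes, 12 rose (21.6% of all tested genes did) and none fell, with a median log2 fold change of 2.88. FOXA1 (chromosome 14, 37589984 to 37596059), a pioneer factor that opens chromatin for endoderm genes, stood at 0 CPM in both libraries of hESC and 53.7 and 51.1 CPM in hPFE (at least 601-fold, adjusted p = 3.39e-04). FOXA2 (chromosome 20, 22581005 to 22585455), its close relative, stood at 0.0601 and 0.113 CPM in hESC and 22.9 and 12.8 CPM in hPFE (ratio 209, interval 71.2 to 1017, adjusted p = 2.86e-04). The third member of the family went the other way. FOXA3 fell from 14.3 and 12.3 CPM to 1.21 and 0.505 CPM (log2 fold change -3.91, SE 0.38, adjusted p = 3.14e-04). SHH (chromosome 7, 155799986 to 155812273), the hedgehog ligand of the gut epithelium, stood at 0.0601 and 0.113 CPM in hESC and 167 and 72.7 CPM in hPFE (ratio 1418, interval 485 to 6878, adjusted p = 9.20e-05), and its mean was 9.63 CPM in hDE and 11.2 CPM in hAFE. Both hPFE libraries held all of these genes, with FOXA1 nearly equal in both and SHH higher in replicate 1.

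LINC00261, a long noncoding RNA that lies beside FOXA2, was among the 12 largest rises, by fitted fold, of genes at 10 CPM or more. It stood at 0 CPM in both libraries of hESC and 26.1 and 12.3 CPM in hPFE (at least 227-fold, adjusted p = 0.00823); its call was lost on both log2(TPM + 1) scales, and the deposited count is uncertain, with a posterior SD of 0.363 of the count. Its promoter (chr20:22578593-22578892, minus strand, RefSeq, GRCh38.p14) is shown because it holds the core letters of the forkhead motif, TGTTTAC, in capitals on the opposite strand and 237 bases before the start.
LINC00261: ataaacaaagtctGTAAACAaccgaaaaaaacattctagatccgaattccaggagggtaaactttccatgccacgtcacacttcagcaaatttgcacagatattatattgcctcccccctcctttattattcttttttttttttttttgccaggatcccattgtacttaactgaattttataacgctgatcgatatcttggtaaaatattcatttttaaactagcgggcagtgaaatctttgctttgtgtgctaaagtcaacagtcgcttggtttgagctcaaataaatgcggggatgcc
These letters, searched on both strands, were held by 3.41% of all promoters, by 2.31% of those of tested genes, by 61 of 1658 promoters of genes at least 2-fold higher (3.68%), by 26 of 1622 of genes at least 2-fold lower (1.60%) and by 2.18% of genes not called. The other motifs searched the same way were the SOX core AACAATG, the E-box CACCTG and the GLI core CCACCCA, held by 2.23%, 17.3% and 8.26% of promoters of higher genes and by 1.54%, 22.1% and 10.2% of lower genes. None of these shares was tested.

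Most listed regulators of the pharyngeal pouches rose. Of 22 tested pharyngeal endoderm genes, 17 rose, none fell and 5 did not pass, where 21.6% of all tested genes rose and 23.3% fell. The median log2 fold change was 5.83, or 4.71 with genes at 0 held at their bound. The count was 12 without hESC replicate 1, 11 without hESC replicate 2 and 9 on centred log2(TPM + 1). PAX9 (chromosome 14, 36657568 to 36679715), needed for thymus and parathyroid formation, stood at 0.0601 and 0.170 CPM in hESC and 95.7 and 28.6 CPM in hPFE (log2 fold change 8.96, SE 0.94, adjusted p = 4.49e-04). PAX1 (chromosome 20, 21705659 to 21718486), its paralog in the pouches, stood at 0 CPM in both libraries of hESC and 26.5 and 17.3 CPM in hPFE (at least 255-fold, adjusted p = 0.00142). ISL1 (chromosome 5, 51383391 to 51394738), a LIM homeobox factor, stood at 0.300 and 0.170 CPM in hESC and 71.2 and 34.3 CPM in hPFE (log2 fold change 7.77, SE 1.17, adjusted p = 0.00184). In each of the 3, hPFE replicate 1 was the higher library.

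FOXE1 and TBX1 had the reverse order of libraries. FOXE1 (chromosome 9, 97853254 to 97856715), a forkhead factor of the thyroid bud and pharynx, stood at 0.0601 and 0 CPM in hESC and 26.2 and 67.0 CPM in hPFE (ratio 1540, interval 276 to 60850, adjusted p = 7.07e-04). TBX1 (chromosome 22, 19756703 to 19783593), the T-box factor whose loss causes pouch defects in DiGeorge syndrome, stood at 0 CPM in both libraries of hESC and 1.21 and 1.95 CPM in hPFE (at least 17.7-fold, adjusted p = 0.0249). The TBX1 call was lost without either hESC library, without hPFE replicate 2, at a 2-fold minimum and on both log2(TPM + 1) scales. EYA1, a transcriptional cofactor of pouches and placodes that was singled out after its values were seen, rose from 2.76 and 2.71 CPM to 12.2 and 26.5 CPM (log2 fold change 2.81, SE 0.56, adjusted p = 0.00581), a call lost without hESC replicate 2 and on centred log2(TPM + 1). SIX4 stood at 48.0 and 48.7 CPM in hESC and 49.7 and 65.9 CPM in hPFE, and SALL1 at 58.4 and 47.1 CPM in hESC and 36.3 and 52.4 CPM in hPFE, and neither passed. NKX2-5, a homeobox factor of heart and pharynx, stood at 0 and 0.113 CPM in hESC and 18.7 and 3.03 CPM in hPFE (ratio 198, interval 54.4 to 1642, adjusted p = 0.00716), a call lost without hESC replicate 1 and on centred log2(TPM + 1).

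Anterior HOX genes were silent in hESC and present in hPFE. Of 15 HOX genes of groups 1 to 5, 10 had no count in hESC, and the sum over the list was 0.24 and 0.17 CPM in hESC and 81.3 and 37.5 CPM in hPFE. Over all tested genes 21.6% rose. Of 9 tested, 6 rose, a count that was 3 without hESC replicate 1, 2 without hESC replicate 2, 4 without hPFE replicate 1, 3 at a 2-fold minimum and on centred log2(TPM + 1), and 10 without the count filter. HOXA3 (chromosome 7, 27106184 to 27152581), which patterns the third pouch, stood at 0 CPM in both libraries of hESC and 3.88 and 3.10 CPM in hPFE (at least 40.4-fold, adjusted p = 0.0366), a call lost without any 1 of the 4 libraries, at a 2-fold minimum, with effective length offsets and on both log2(TPM + 1) scales. HOXB3 stood at 0.0601 and 0 CPM in hESC and 24.6 and 8.59 CPM in hPFE (ratio 593, interval 106 to 23470, adjusted p = 0.00524), a call lost without hESC replicate 2. HOXB2 stood at 0 CPM in both libraries of hESC and 6.56 and 6.21 CPM in hPFE (at least 73.2-fold, adjusted p = 0.00361) and kept its call under all 17 alternatives. HOTAIRM1, a long noncoding RNA of the HOXA cluster, stood at 0 CPM in both libraries of hESC and 11.7 and 10.8 CPM in hPFE (at least 129-fold, adjusted p = 0.017), a call lost without either hESC library. Its mean in hAFE was 29.6 CPM (SD 36.6, n = 2).

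Of 9 tested cofactors that bind DNA with HOX proteins, the 3 MEIS genes rose (21.6% of all tested genes did) and 6 did not pass. MEIS2 (chromosome 15, 36889204 to 37101299) stood at 0.480 and 0.622 CPM in hESC and 209 and 216 CPM in hPFE (log2 fold change 8.57, SE 0.74, adjusted p = 2.19e-04). MEIS1 stood at 0.180 and 0.452 CPM in hESC and 184 and 95.8 CPM in hPFE (log2 fold change 8.74, SE 0.50, adjusted p = 4.37e-05). MEIS3 rose from 12.4 and 7.12 CPM to 63.8 and 26.5 CPM (log2 fold change 2.21, SE 0.51, adjusted p = 0.0105), a call lost without hESC replicate 2 and at a 2-fold minimum. Among those that did not pass, PBX2 stood at 46.2 and 41.8 CPM in hESC and 51.5 and 40.7 CPM in hPFE. It passed on log2(TPM + 1) and log2(TPM + 0.1).

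Several genes that mark the onset of endoderm formation were near 0 in hPFE. SOX17, which defines definitive endoderm, stood at 0 and 0.170 CPM in hESC and 0.182 and 0.433 CPM in hPFE and did not pass (adjusted p = 0.144), against a mean of 138 CPM in hDE. EOMES stood at 0.300 and 0.848 CPM in hESC and 0.364 and 0.0722 CPM in hPFE, MIXL1 at 0.420 and 0.791 CPM in hESC and 1.46 and 0.505 CPM in hPFE and GSC at 0.180 and 0.0565 CPM in hESC and 0.0607 and 0 CPM in hPFE, and none passed, although their means in hDE were 270.2, 90.3 and 75.2 CPM. EOMES and GSC passed on centred log2(TPM + 1). NODAL ended below its start, at 0.961 and 1.36 CPM in hESC and 0.121 and 0.144 CPM in hPFE (log2 fold change -3.06, SE 0.42, adjusted p = 0.00135), a call lost on log2(TPM + 1) and with limma-voom. Other endoderm genes stayed above the stem cell level. CXCR4, a chemokine receptor used to sort endoderm, stood at 1.02 and 0.509 CPM in hESC and 14.1 and 7.36 CPM in hPFE (log2 fold change 3.82, SE 0.72, adjusted p = 0.00458). CER1, a secreted antagonist of NODAL, BMP and WNT, stood at 1.38 and 2.43 CPM in hESC and 21.1 and 9.74 CPM in hPFE (log2 fold change 3.01, SE 0.47, adjusted p = 0.00207), after a mean of 7607 CPM in hDE. PRDM1 stood at 0.480 and 0.226 CPM in hESC and 19.3 and 41.9 CPM in hPFE (log2 fold change 6.41, SE 0.60, adjusted p = 2.79e-04). In all, 8 of 19 tested definitive endoderm genes rose, 2 fell and 9 did not pass, where 21.6% of all tested genes rose and 23.3% fell. The list summed to 130.3 and 127 CPM in hESC and to 343 and 374 CPM in hPFE.

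Markers of the organs that the pharynx and foregut later form were low or absent. NKX2-1 (thyroid and lung) stood at 0.729 and 0.0722 CPM in hPFE, FOXN1 (thymus) at 0.121 and 0.144 CPM and GCM2 (parathyroid) at 0 and 0.0722 CPM, and PTH had no count in any of the 4 libraries. Of the 18 genes of thyroid, parathyroid, thymus and lung, 12 were too low to test, which says only that they were not detectable at this depth beyond a few counts. Of 15 genes of liver, pancreas and intestine, 11 were too low to test, and ALB stood at 0.182 and 0.289 CPM.

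The hedgehog ligand SHH rose together with receptors of the pathway. Over all tested genes 21.6% rose and 23.3% fell. Of 13 tested members, 8 rose and 1 fell; without hESC replicate 1, hESC replicate 2 and hPFE replicate 1 the counts of rises were 5, 4 and 4, on centred log2(TPM + 1) 3 and at a 2-fold minimum 4. PTCH1, the receptor and a direct target of the pathway, stood at 10.9 and 19.1 CPM in hESC and 122 and 114 CPM in hPFE (log2 fold change 2.98, SE 0.30, adjusted p = 3.61e-04). HHIP, a decoy receptor that is also a target, stood at 0.0601 and 0.0565 CPM in hESC and 25.4 and 5.12 CPM in hPFE (ratio 277, interval 76.2 to 2292, adjusted p = 0.00375), a call lost on centred log2(TPM + 1). SMO, the signal transducer, stood at 60.5 and 71.5 CPM in hESC and 93.2 and 67.3 CPM in hPFE and GLI1, a target and effector, at 12.8 and 13.7 CPM in hESC and 25.9 and 17.5 CPM in hPFE, and neither passed (adjusted p = 0.216 and adjusted p = 0.111). Both passed on log2(TPM + 1) and log2(TPM + 0.1). GLI2 was the member called lower, from 18.7 and 18.9 CPM to 11.5 and 13.3 CPM (log2 fold change -0.60, SE 0.20, adjusted p = 0.0386). Of 17 alternatives, 13 ended this call, with the direction turned on log2(TPM + 1), at 0.27, and on log2(TPM + 0.1), at 0.36.

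Retinoic acid genes changed in both directions, where 21.6% of all tested genes rose and 23.3% fell. Of 18 tested, 11 rose and 2 fell, with 3 and 5 rises without hESC replicate 1 and 2, with 6 and 7 without hPFE replicate 1 and 2, with 6 on centred log2(TPM + 1) and 3 at a 2-fold minimum. The receptor RARB, itself a retinoic acid target, stood at 0.120 and 0.113 CPM in hESC and 23.0 and 59.9 CPM in hPFE (log2 fold change 8.37, SE 0.77, adjusted p = 2.79e-04). The receptor RARG fell from 35.0 and 35.2 CPM to 5.83 and 3.46 CPM (log2 fold change -2.91, SE 0.29, adjusted p = 3.58e-04). CRABP1, a cytoplasmic binding protein, fell from 72.4 and 69.7 CPM to 5.89 and 1.37 CPM (log2 fold change -4.26, SE 0.61, adjusted p = 0.00154). ALDH1A3, which makes retinoic acid, stood at 5.95 and 2.88 CPM in hESC and 27.0 and 9.74 CPM in hPFE (log2 fold change 2.06, SE 0.50, adjusted p = 0.013), a call lost without hESC replicate 2, without hPFE replicate 1, at a 2-fold minimum and on centred log2(TPM + 1). CYP26A1, which breaks it down, stood at 5.47 and 2.43 CPM in hESC and 7.83 and 34.6 CPM in hPFE and did not pass (adjusted p = 0.216).

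BMP pathway genes rose almost throughout, where 21.6% of all tested genes rose. Of 22 tested, 20 rose and none fell, with a median log2 fold change of 3.01; 13, 12, 17 and 18 rose without hESC replicate 1, hESC replicate 2, hPFE replicate 1 and hPFE replicate 2, and 13 at a 2-fold minimum. The ligand BMP5 stood at 0.0601 and 0.283 CPM in hESC and 17.0 and 11.2 CPM in hPFE (log2 fold change 6.27, SE 0.67, adjusted p = 4.84e-04). The antagonist NOG stood at 0.120 and 0.113 CPM in hESC and 12 and 8.01 CPM in hPFE (log2 fold change 6.32, SE 0.59, adjusted p = 2.86e-04), so a ligand and an inhibitor rose together. The receptor BMPR1B stood at 1.44 and 1.81 CPM in hESC and 34.9 and 36.7 CPM in hPFE (log2 fold change 4.45, SE 0.28, adjusted p = 6.63e-05). The receptor BMPR1A, at 151 and 156 CPM in hESC and 216 and 175 CPM in hPFE, did not pass, though it did on log2(TPM + 1) and log2(TPM + 0.1). ID3, a target gene, stood at 96.1 and 98.7 CPM in hESC and 182 and 62.3 CPM in hPFE and did not pass either, with its hPFE libraries on both sides of hESC.

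In the TGF-beta family, TGFB2 and INHBA rose while NODAL fell. The ligand TGFB2 stood at 1.62 and 1.47 CPM in hESC and 105 and 177 CPM in hPFE (log2 fold change 6.50, SE 0.75, adjusted p = 6.58e-04) and INHBA, a subunit of activin, at 1.20 and 1.92 CPM in hESC and 43.3 and 36.2 CPM in hPFE (log2 fold change 4.66, SE 0.71, adjusted p = 0.00194). FOXH1, a transcription factor through which NODAL acts, fell from 13.2 and 13.3 CPM to 0.182 and 0.0722 CPM (log2 fold change -6.57, SE 0.50, adjusted p = 1.42e-04). The transducers SMAD2 and SMAD4 did not pass, at 152 and 155 CPM in hESC and 178 and 247 CPM in hPFE and at 143 and 141 CPM in hESC and 133 and 142 CPM in hPFE. Of 22 tested genes of this list, 11 rose, 5 fell and 6 did not pass, where 21.6% of all tested genes rose and 23.3% fell. The share of falls was thus close to that over all genes. On log2(TPM + 1) 2 fell, and falls were also fewer without hESC replicate 1 or hPFE replicate 2.

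FGF genes fell more often than they rose on the count scale, 8 against 4 of 18 tested, but 5 fell and 6 rose on log2(TPM + 0.1). Over all tested genes 23.3% fell and 21.6% rose, so the share of FGF rises was close to that over all genes. There were 2 rises without hESC replicate 1, hESC replicate 2 or hPFE replicate 1 or on centred log2(TPM + 1), and 5 falls and no rise at a 2-fold minimum. FGF2, which maintains human stem cells, fell from 172 and 162 CPM to 15.3 and 22.2 CPM (log2 fold change -3.16, SE 0.22, adjusted p = 9.78e-05). FGFR4 fell from 51.5 and 51.0 CPM to 3.28 and 1.15 CPM (log2 fold change -4.50, SE 0.80, adjusted p = 0.0036), and SPRY4, a feedback inhibitor of the pathway, from 137 and 112 CPM to 14.1 and 9.45 CPM (log2 fold change -3.40, SE 0.67, adjusted p = 0.00545). FGFR2, the receptor of foregut epithelium, stood at 70.1 and 60.3 CPM in hESC and 51.2 and 64.6 CPM in hPFE and did not pass (adjusted p = 0.408).

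Among 28 WNT genes, 14 rose and 4 fell, with 9 rises without hESC replicate 2 or at a 2-fold minimum, and 2 falls at that minimum or on log2(TPM + 1). WNT5B rose from 0.901 and 0.565 CPM to 27.9 and 16.7 CPM (log2 fold change 4.92, SE 0.50, adjusted p = 4.06e-04), and LGR5, a receptor for R-spondins, from 0.300 and 0.0565 CPM to 7.77 and 7.21 CPM (log2 fold change 5.35, SE 0.55, adjusted p = 4.03e-04). The secreted antagonist SFRP1 fell from 681 and 667 CPM to 68.1 and 72.9 CPM (log2 fold change -3.26, SE 0.20, adjusted p = 5.64e-05), while another antagonist, DKK1, rose from 0.180 and 0.452 CPM to 19.6 and 9.16 CPM (log2 fold change 5.46, SE 1.25, adjusted p = 0.01), a call lost without either hESC library. Of 19 Notch genes, 6 rose and 5 fell, where 21.6% of all tested genes rose and 23.3% fell. The share of falls was close to that over all genes. There were 3 falls on log2(TPM + 1), with DESeq2 or with limma-voom, and 2 on log2(TPM + 0.1) or at a 2-fold minimum. Falls were also fewer without any 1 library. NOTCH3 stood at 55.6 and 44.6 CPM in hESC and 203 and 143 CPM in hPFE (log2 fold change 1.79, SE 0.19, adjusted p = 5.09e-04), whereas NOTCH1, at 25.7 and 16.5 CPM in hESC and 25.6 and 17.4 CPM in hPFE, did not pass (adjusted p = 0.959). HEY1 rose from 0.601 and 0.622 CPM to 21.9 and 7.29 CPM (log2 fold change 4.56, SE 0.69, adjusted p = 0.00186) and the related HEY2 fell from 7.99 and 7.35 CPM to 2.37 and 1.80 CPM (log2 fold change -1.87, SE 0.32, adjusted p = 0.00329).

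**Figure D4:**
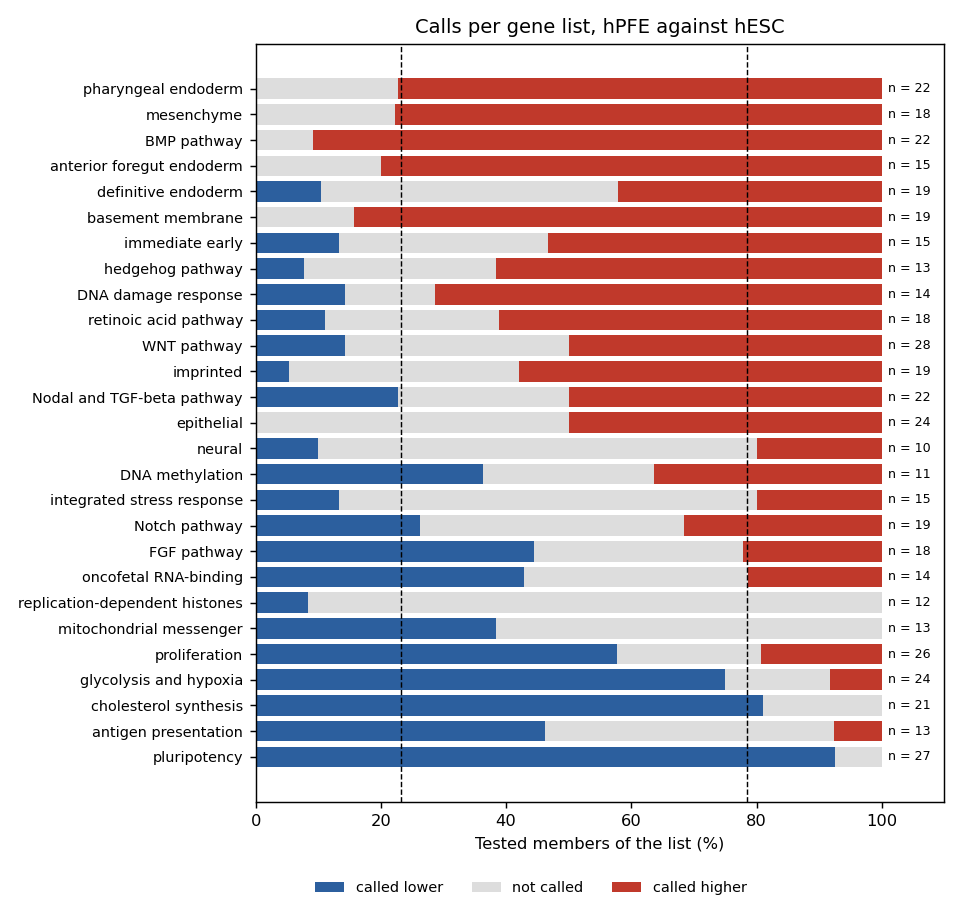
Share of the tested members of each gene list with 10 or more tested members (rows; n is the number tested) that were called lower (blue), not called (grey) or called higher (red) in hPFE against hESC. The dashed lines mark the same shares over all tested genes, 23.3% lower from the left edge and 21.6% higher from the right end of the bars; pluripotency reaches furthest in blue and BMP furthest in red.

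Epithelial genes were present in both stages, and some rose further, where 21.6% of all tested genes rose. Of 24 tested genes 12 rose, none fell and 12 did not pass, with 7 rises without hESC replicate 1 and 6 at a 2-fold minimum. CDH1, the E-cadherin gene, stood at 244 and 239.9 CPM in hESC and 222 and 285 CPM in hPFE (adjusted p = 0.781), and per length at means of 29.2 and 50.1 TPM. EPCAM stood at 73.6 and 100.2 CPM in hESC and 170.5 and 201 CPM in hPFE (log2 fold change 1.10, SE 0.17, adjusted p = 0.0022), a call lost at a 2-fold minimum. CLDN4, a tight junction protein, rose from 15.3 and 15.1 CPM to 109 and 107 CPM (log2 fold change 2.83, SE 0.36, adjusted p = 9.05e-04), and GRHL3, a factor of epithelial barrier formation, from 0.480 and 0.396 CPM to 18.2 and 17.0 CPM (log2 fold change 5.30, SE 0.37, adjusted p = 1.80e-04). TP63, a basal epithelial factor of pharynx and surface ectoderm, stood at 0.0601 and 0 CPM in hESC and 14.5 and 41.1 CPM in hPFE (ratio 916, interval 164 to 36220, adjusted p = 0.00145), while its usual target KRT5 had 1 count in hPFE.

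Matrix genes rose further. FN1 (chromosome 2, 215360440 to 215436172), fibronectin, went from 62.4 and 56.7 CPM to 5743 and 11640 CPM (log2 fold change 7.19, SE 0.41, adjusted p = 4.37e-05), and from a mean of 5.32 TPM to 1346 TPM. Of 19 tested basement membrane genes 16 rose (21.6% of all tested genes did) and none fell. At a 2-fold minimum 10 of them rose. LAMA4, a laminin chain, rose from 0.901 and 1.02 CPM to 10.9 and 23.3 CPM (log2 fold change 4.14, SE 0.53, adjusted p = 9.76e-04). Integrin subunit ITGB6, a receptor subunit for fibronectin and latent TGF-beta, stood at 0 CPM in both libraries of hESC and 24.5 and 128 CPM in hPFE (at least 823-fold, adjusted p = 0.00101).

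The hPFE libraries also held genes of other cell types, in unequal amounts. Of 18 tested mesenchyme genes 14 rose (21.6% of all tested genes did) and none fell. COL1A1 rose from 11.2 and 9.38 CPM to 84.8 and 62.9 CPM (log2 fold change 2.85, SE 0.23, adjusted p = 1.66e-04). COL3A1 (chromosome 2, 188974320 to 189012746), a fibrillar collagen of connective tissue, stood at 1.08 and 2.09 CPM in hESC and 1232 and 29.7 CPM in hPFE (log2 fold change 8.62, SE 1.72, adjusted p = 0.00573), a call lost without either hESC library. Of the defining mesenchyme and mesoderm markers, TWIST1 stood at 1.40 and 0.144 CPM in hPFE and PRRX1 at 7.59 and 0.216 CPM. FOXF1 stood at 0.182 and 0.0722 CPM and PDGFRA at 7.10 and 4.91 CPM, and PDGFRA did not pass. TWIST1, PRRX1 and FOXF1 were left out by the count filter, PRRX1 with 128 counts over hPFE, nearly all in replicate 1. Without that filter, 20 genes of the mesenchyme list rose. MEOX1, of the paraxial mesoderm, stood at 0 CPM in both libraries of hESC and 10.4 and 13.2 CPM in hPFE (at least 134-fold, adjusted p = 0.0208), a call lost without either hESC library, at a 2-fold minimum and on centred log2(TPM + 1). Over the 7 markers the sum was 13.7 and 13.4 CPM in hESC and 112 and 81.7 CPM in hPFE, most of it COL1A1.

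The 2 hPFE libraries differed in genes of several lists. Of 20 mesenchyme genes at 1 CPM or more in hPFE, 15 were higher in replicate 1, with a median log2 ratio of replicate 2 over replicate 1 of -1.09. The list summed to 9554 CPM in replicate 1 and 13380 CPM in replicate 2, and FN1 was the larger part of both sums. HAND2, of heart and limb mesoderm, stood at 38.8 and 0.794 CPM in the 2 libraries, and 6 of 7 HOX genes were also higher in replicate 1. Of 9 tested amnion and trophoblast genes, 7 rose and 1 fell, where 21.6% of all tested genes rose and 23.3% fell. At a 2-fold minimum or on centred log2(TPM + 1) 5 rose. Their median log2 fold change was 6.90, or 4.59 with genes at 0 held at their bound. Of 8 at 1 CPM or more in hPFE, 6 were higher in replicate 2 (median 0.93). The list summed to 20.2 and 16 CPM in hESC and to 122 and 587 CPM in hPFE. Most of that sum was of IGFBP3, at 88.6 and 396 CPM in hPFE, and KRT7, at 12.4 and 162 CPM, which many other epithelia also express. Both were higher than in hESC, but the IGFBP3 call was lost without hESC replicate 2, and the KRT7 call without that library, hESC replicate 1 or hPFE replicate 2 and at a 2-fold minimum. The trophoblast factor CDX2 had 1 count in hPFE and CGA stood at 0.0607 and 2.02 CPM, while ELF5 stood at 5.22 and 8.01 CPM and VGLL1 at 6.01 and 10.2 CPM, both from 0 counts in hESC and called in every alternative. Of 7 tested surface and placodal ectoderm genes, 5 rose and none fell, with 4 rises at a 2-fold minimum and 2 on centred log2(TPM + 1). Genes of other lineages differed among themselves. Of 19 neural genes 9 were left out by the count filter, among them SOX1 at 1.21 and 0.144 CPM in hPFE. Another 7 did not pass, among them PAX6 at 2.37 and 0.577 CPM. POU3F1 fell. MAP2, a microtubule protein, rose from 22.3 and 20.8 CPM to 167 and 107 CPM (log2 fold change 2.67, SE 0.32, adjusted p = 7.32e-04). POU3F2 rose from 0.240 and 0.904 CPM to 14.8 and 1.15 CPM (log2 fold change 3.77, SE 1.19, adjusted p = 0.034), but its call was lost in 8 of the 17 alternatives, among them without either hESC library or hPFE replicate 1. The part of these genes in the other results was not tested.

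**Figure D5:**
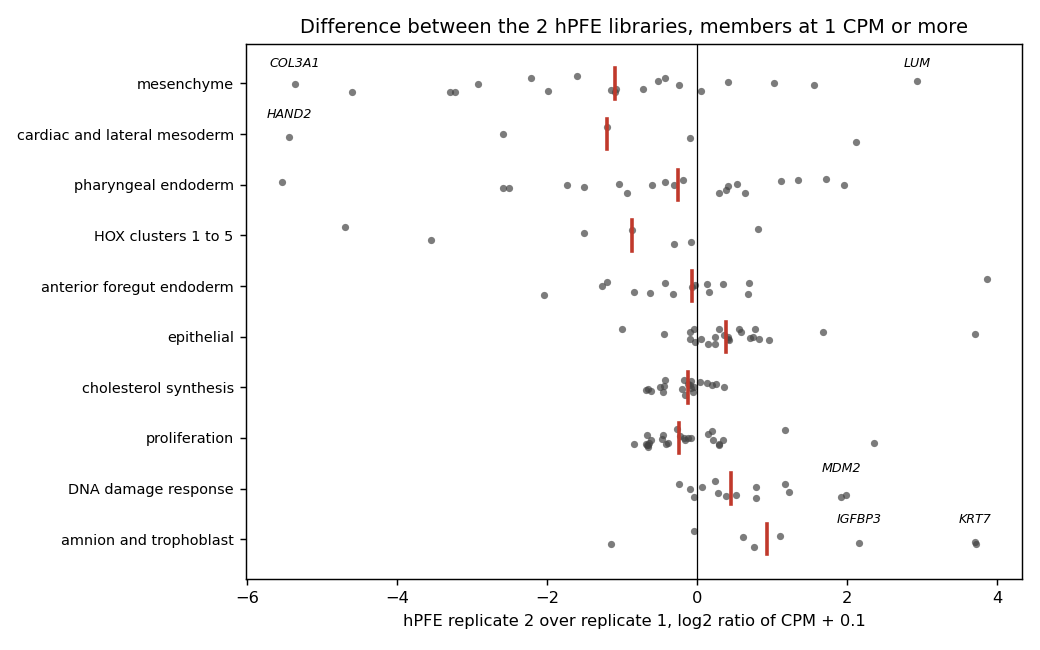
Log2 ratio of hPFE replicate 2 over hPFE replicate 1, computed from CPM + 0.1 (x axis), for each member at 1 CPM or more of 10 gene lists (rows); grey points are genes, red bars the medians, and the vertical line marks equal levels. Mesenchyme, cardiac and HOX genes lie to the left (medians -1.09, -1.21 and -0.87), and DNA damage response and amnion genes to the right (0.45 and 0.93).

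Endothelial and blood genes moved both ways: of 7 tested, 4 fell and 2 rose (23.3% and 21.6% of all tested genes did). KDR, a VEGF receptor known from endothelium, stood at 198 and 192 CPM in hESC and 1.94 and 5.27 CPM in hPFE (log2 fold change -5.78, SE 0.44, adjusted p = 1.34e-04), and TEK, TIE1 and ERG also fell. The TEK and TIE1 calls were lost without hESC replicate 2. RUNX1, a factor of blood and of some epithelia, rose from 0.180 and 0.113 CPM to 4.86 and 21.9 CPM (log2 fold change 6.44, SE 0.96, adjusted p = 0.00179), a call lost on centred log2(TPM + 1). ESAM, an adhesion molecule, rose from 0.0601 and 0.113 CPM to 2.61 and 3.25 CPM (ratio 33.2, interval 11 to 164, adjusted p = 8.69e-04). CDH5 and PECAM1, which define endothelium, were near 1 CPM or below in all 4 libraries. Of 8 tested neural crest genes, 3 fell and 2 rose, where 23.3% of all tested genes fell and 21.6% rose. SOX10 fell from 0.901 and 0.735 CPM to 0 and 0 CPM, a call lost on log2(TPM + 1). SNAI2, a zinc finger factor also of mesenchyme, rose from 0.781 and 1.02 CPM to 4.74 and 14.1 CPM (log2 fold change 3.37, SE 0.64, adjusted p = 0.00463). ERBB3, a receptor also of epithelia, rose from 60.5 and 60.8 CPM to 82.1 and 95.1 CPM (log2 fold change 0.55, SE 0.15, adjusted p = 0.0187). This call was lost without either hESC library or hPFE replicate 2, at a 2-fold minimum, with effective length offsets and on centred log2(TPM + 1).

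Most listed genes of cholesterol synthesis and glycolysis were lower in hPFE, where 23.3% of all tested genes fell and 21.6% rose. Of 21 cholesterol genes 17 fell and none rose (median log2 fold change -1.16), with 11 falls without hESC replicate 2, 5 on either log2(TPM) scale without centring and 4 at a 2-fold minimum. FDFT1, squalene synthase, fell from 390.4 and 463 CPM to 160.2 and 143 CPM (log2 fold change -1.49, SE 0.17, adjusted p = 5.60e-04). Of 24 glycolysis and hypoxia genes 18 fell and 2 rose, with 6 and 5 falls on the log2(TPM + 1) and log2(TPM + 0.1) scales and 5 at a 2-fold minimum. HK1, a hexokinase, fell from 159 and 147 CPM to 46.3 and 23.2 CPM (log2 fold change -2.14, SE 0.28, adjusted p = 0.00109), and ADM, a hypoxia target, from 67.8 and 78.5 CPM to 4.80 and 8.66 CPM (log2 fold change -3.45, SE 0.35, adjusted p = 3.76e-04). VEGFA rose from 34.2 and 24.7 CPM to 77.0 and 64.9 CPM (log2 fold change 1.27, SE 0.26, adjusted p = 0.00662), a call lost without hESC replicate 2 and at a 2-fold minimum. The glucose transporter gene SLC2A3 stood at 745 and 703 CPM in hESC and 883 and 2224 CPM in hPFE and did not pass (adjusted p = 0.227).

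Cell cycle genes changed unevenly. Over all tested genes 23.3% fell and 21.6% rose, and the share of cell cycle rises was close to the latter. Of 26 tested, 15 fell and 5 rose, with 8 and 7 falls without hESC replicate 1 and 2, 8 in a fit of the 4 libraries alone and 4 at a 2-fold minimum or on either log2(TPM) scale without centring. The replication licensing factor MCM5 fell from 184 and 211 CPM to 68.2 and 60.6 CPM (log2 fold change -1.62, SE 0.13, adjusted p = 1.87e-04). The proliferation marker MKI67, at 128 and 109.5 CPM in hESC and 203 and 128 CPM in hPFE, and TOP2A, at 598 and 657 CPM in hESC and 507 and 317 CPM in hPFE, did not pass. MKI67 passed on each log2(TPM) scale and with effective length offsets, and TOP2A with DESeq2 and with limma-voom. CDKN1A, the p21 cell cycle inhibitor, rose from 10.8 and 8.03 CPM to 127 and 285 CPM (log2 fold change 4.45, SE 0.42, adjusted p = 3.02e-04). CDKN2A, the p16 and ARF locus, rose from 0.0601 and 0.170 CPM to 3.76 and 19.8 CPM (log2 fold change 6.56, SE 0.97, adjusted p = 0.0017), with replicate 2 well above replicate 1. MYC, a growth factor-driven transcription factor, fell from 29.2 and 23.7 CPM to 2.79 and 5.63 CPM (log2 fold change -2.66, SE 0.35, adjusted p = 0.00109).

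A further list held CDKN1A and other genes of the DNA damage response. Of 14 tested 10 rose and 2 fell, with 5 rises without hESC replicate 2 or at a 2-fold minimum. ZMAT3 rose from 11.5 and 8.48 CPM to 38.7 and 66.7 CPM (log2 fold change 2.40, SE 0.33, adjusted p = 0.00125), and MDM2, a ubiquitin ligase, from 135 and 133 CPM to 329 and 1247 CPM (log2 fold change 2.56, SE 0.52, adjusted p = 0.00618), a call lost without hESC replicate 2. In replicate 2 of hPFE, 11 of 14 members were higher than in replicate 1. Of 15 integrated stress response genes, 3 rose, 2 fell and 10 did not pass, where 21.6% of all tested genes rose and 23.3% fell. In hPFE, 12 of them were higher in replicate 2 than in replicate 1, with a median log2 ratio of 0.71 and 5 over 2-fold apart. ATF3, a stress-induced factor, rose from 25.4 and 12 CPM to 55.4 and 194 CPM (log2 fold change 2.74, SE 0.67, adjusted p = 0.0134). This call was lost without hESC replicate 2, without hPFE replicate 2 and at a 2-fold minimum.

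DNA methylation enzymes changed in both directions. DNMT3B, the de novo methyltransferase of stem cells, fell from 817 and 1084 CPM to 18.2 and 14.9 CPM (log2 fold change -5.84, SE 0.33, adjusted p = 4.37e-05). TET2, which oxidises methylcytosine, rose from 13.7 and 13.1 CPM to 115 and 139 CPM (log2 fold change 3.24, SE 0.18, adjusted p = 4.37e-05), and its relative TET1 fell from 184 and 206 CPM to 95.4 and 90.7 CPM (log2 fold change -1.07, SE 0.14, adjusted p = 9.98e-04), a call lost at a 2-fold minimum and on both log2(TPM) scales without centring. UHRF1, which guides maintenance methylation, stood at 46.0 and 55.7 CPM in hESC and 64.3 and 41.7 CPM in hPFE and did not pass (adjusted p = 0.837).

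Among imprinted genes, 11 of 19 tested rose (21.6% of all tested genes did), 6 of them at a 2-fold minimum, and 1 fell. The neighbours H19 (chromosome 11, 1995176 to 2001470) and IGF2, a noncoding RNA and a fetal growth factor expressed from opposite parental copies, rose together. H19 stood at 0.901 and 1.30 CPM in hESC and 344 and 173 CPM in hPFE (log2 fold change 7.86, SE 1.22, adjusted p = 0.00209), and IGF2 at 0.601 and 0.170 CPM in hESC and 195 and 84.1 CPM in hPFE (log2 fold change 8.49, SE 1.41, adjusted p = 0.00275). Both were detected in hAFE, at means of 180 CPM (SD 212, n = 2) for H19 and 119 CPM (SD 141, n = 2) for IGF2, so the 2 hAFE libraries were far apart. Both were low in hDE, at 0.117 and 1.43 CPM. PLAGL1, an imprinted zinc finger factor, rose from 0.541 and 0.452 CPM to 56.4 and 49.2 CPM (log2 fold change 6.71, SE 0.27, adjusted p = 1.35e-05). SNRPN, the splicing protein of the Prader-Willi region, was the member that fell, from 643 and 625 CPM to 171 and 157 CPM (log2 fold change -1.95, SE 0.14, adjusted p = 1.06e-04), and SNHG14, the noncoding transcript of the same region, fell from 943 and 988 CPM to 294 and 402 CPM (log2 fold change -1.47, SE 0.19, adjusted p = 0.00107), a call lost on both log2(TPM) scales without centring.

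Long noncoding RNAs were called higher more often than lower on the count scale. Of 2109 tested, 490 rose (23.2%, close to the 21.6% over all tested genes) and 240 fell (11.4%, against 23.3% over all), and their median log2 fold change was 0.50. MALAT1, a nuclear RNA of speckles, rose from 397 and 256 CPM to 1463 and 2035 CPM (log2 fold change 2.42, SE 0.27, adjusted p = 5.33e-04). NEAT1, the scaffold of paraspeckles, rose from 17.7 and 10.01 CPM to 179 and 619 CPM (log2 fold change 4.85, SE 0.84, adjusted p = 0.0032), with replicate 2 above replicate 1. Of the 12 largest falls, by fitted fold, at 10 CPM or more in hESC, 5 were intergenic RNAs with 0 counts in hPFE. The highest of these in hESC, AL117378.1, stood at 66.6 and 68.0 CPM in hESC and 0 CPM in both libraries of hPFE (at least 681-fold, adjusted p = 4.14e-05), and LNCPRESS1, a stem cell RNA, at 21.4 and 17.1 CPM in hESC and 0 CPM in both libraries of hPFE (at least 194-fold, adjusted p = 2.35e-04). The count of a further one, AL356488.2, is uncertain, with a posterior SD of 0.597 of the count. Among small structural RNAs, RN7SK, a regulator of transcription elongation, stood at 6936 and 5956 CPM in hESC and 15220 and 12460 CPM in hPFE (log2 fold change 1.10, SE 0.21, adjusted p = 0.00488), a call lost on all 3 log2(TPM) scales and at a 2-fold minimum.

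Other large rises were of epithelial and secreted products. TCIM, a regulator of proliferation, stood at 0 and 0.0565 CPM in hESC and 157 and 103 CPM in hPFE (ratio 4544, interval 815 to 179500, adjusted p = 1.33e-04). SCEL, a precursor of the cornified envelope of stratified epithelia, stood at 0 and 0.0565 CPM in hESC and 68.1 and 75.5 CPM in hPFE (ratio 2454, interval 440 to 96980, adjusted p = 0.0012). PTHLH, the parathyroid hormone-like hormone, stood at 0 CPM in both libraries of hESC and 6.80 and 15.7 CPM in hPFE (at least 124-fold, adjusted p = 0.00142), with means of 0.0445 CPM in hDE and 0 in hAFE. CPA4, a carboxypeptidase, stood at 0 CPM in both libraries of hESC and 1.82 and 29.1 CPM in hPFE (at least 164-fold, adjusted p = 0.0117) after a mean of 0.139 CPM in hAFE; its call was lost without either hESC library and on centred log2(TPM + 1), and its hPFE libraries differed widely. CFC1, a NODAL co-receptor, stood at 0 CPM in both libraries of hESC and 20.6 and 4.55 CPM in hPFE (at least 152-fold, adjusted p = 0.0103), a call lost without either hESC library, and it has a close copy, CFC1B.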

How the data were processed

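RNA-seq of H1 cells was used as 2 hPFE and 2 hESC libraries, with the 4 hDE and hAFE libraries in the same fit. Ribosomal RNA was removed from total RNA before strand-specific, paired-end sequencing, per the labels' protocols. The authors deposited gene tables whose columns are those of RSEM, per the file headers; hg38 and DESeq2 are named in the submitters' processing notes. The aligner, the versions and the strand setting of the counting are not given in the sources used here. In the deposited tables, expected counts split reads that fit several genes between them. The deposited TPM values allow for effective length, and the deposited posterior SDs and effective lengths are the authors' other columns.

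Each table had 59526 rows. Of these 58780 matched GENCODE 29, and 97 spike-in rows and 649 others held no count. Expected counts were rounded, filtered with filterByExpr (17446 genes left), scaled by TMM and fitted by stage in edgeR 4.0.16 (R 4.3.3; quasi-likelihood test, 4 residual degrees of freedom, Benjamini-Hochberg threshold 0.05). The SE is the absolute log2 fold change over the square root of F. Close copies (POU5F1, NANOG, CFC1, histones, 7SL) could share reads. Alternatives used DESeq2 1.42.0 and limma 3.58.1, other filters and scalings, and left out each library. The fit was tested on simulated counts of 14559 genes, 200 of them changed. It recovered 32% of the 2-fold and 85% of the 4-fold changes, with 9 false calls. Far fewer genes changed there than were called here, which makes the adjusted threshold stricter. These rates therefore do not carry over to this comparison. A gene that did not pass may still differ.

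The libraries, gene lists and tests were chosen with earlier results of these data known, so lists are described by counts and carry no test. Named genes are 10 landmarks; the 12 largest rises and falls at 10 CPM or more without overlap; up to 4 called members of each list in its more frequent direction, 2 in the other and 2 that did not pass; the markers; the 5 highest called genes per noncoding class and direction; and the 8 genes furthest apart in hPFE. Genes named outside this rule are said to be so, and a few genes of the rule are not reported here. Floors are 3 counts, or 0.0874 CPM in hESC and 0.0989 CPM in hPFE. Promoters and miRNAs were matched by symbol and span to RefSeq (GRCh38.p14), 1 start per gene.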

Additional observations from a re-analysis of the deposited data

How the results depend on the processing

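Of 228 called genes that the text or its naming rule covers, 127 were called in every alternative that gave them a value (17 or 16), 100 lost the call in at least 1 and 11 turned direction in at least 1; of 83 that were not called, 54 passed in at least 1. The number of calls was 2393 at a 2-fold minimum (1242 higher and 1151 lower) and ran from 3822 to 7632 with 1 library left out, where the lowest and highest values were 1751 and 3587 for higher genes and 2071 and 4045 for lower genes; both hESC libraries moved it by over 1.5 times (4444 without replicate 1, with 1992 higher and 2452 lower, and 3822 without replicate 2). A stage left with 1 library is assumed to vary like the others. On log2(TPM + 1) and log2(TPM + 0.1), 1440 and 1427 genes were lower, and 5712 were higher on the second; with each library centred on its median, added after the data were seen, 2250 were higher. Genes over 2-fold apart between replicates were 311 in hESC and 1714 in hPFE from a mean of 1 CPM. The remaining alternatives gave 6771 to 8800 calls, with 7050 by DESeq2.

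The labels do not say whether libraries with the same replicate number belong together. Deviations of same-numbered libraries correlated at 0.057 between hESC and hPFE and between -0.041 and 0.061 over all pairs of stages. Such values cannot show whether these libraries shared a culture or batch, which could act on few genes. With the replicate block 7494 genes were called.

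Directions that turned were all of small or low values. After centring, the log2 differences were -0.074 for COL4A3, -0.015 for FOXC2, -0.12 for CUBN, -0.34 for PROX1 and MBD2, -0.16 for VTCN1 and -0.20 for TFAP2A; MBD2 was also at -0.37 with effective length offsets. On the 2 TPM scales (pseudocounts 1 and 0.1) GLI2 was at 0.27 and 0.36, MT-ATP6 at 0.027 in both, MT-CO2 at 0.087 and 0.088 and SNHG16 at 0.047 and 0.046. The causes were not tested. Depth limits genes near 0: folds against the floors are bounds, and 2 libraries per stage limit every call.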
